A study of Mus musculus with 2 samples.

Results

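The cells described here are the microglia that gave the largest share of their transcripts to 5 inflammatory genes. Those genes were Ccl3 and Ccl4, chemokines that draw leukocytes to inflamed tissue, Il1b and Tnf, the cytokines that start inflammatory signalling in neighbouring cells, and Il12b, the subunit that IL-12 and IL-23 share. Of 4439 barcodes with at least 2400 unique molecular identifiers (UMIs, counted transcript molecules), 300 or more genes and no more than 10% mitochondrial UMIs, 2131 came from the medial and 2308 from the lateral library. The 10% of each library with the highest share of 8 immediate early genes (Fos, Jun, Junb, Egr1, Ier2, Zfp36, Btg2 and Ppp1r15a) were dropped, which left 1918 medial and 2078 lateral cells. Of these, the 10% of each library with the highest summed share of Il12b, Tnf, Il1b, Ccl3 and Ccl4 were taken as members: 191 medial and 207 lateral cells, 398 in all. They were compared with the lower 50% of the same ranking, 959 medial and 1039 lateral cells, called the lower-ranked cells below. The cells were thus chosen by the measured levels of these 13 genes. The levels of the 13 are given as a description only, and the 13 were left out of the genes called.

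The mice of either library were C57Bl6, had the genotype CX3CR1 and had received cuprizone for 4 weeks, and no untreated mice were analysed here. Cuprizone, a chelator of copper, is toxic to oligodendrocytes and so strips myelin from the corpus callosum, the white matter tract that joins the hemispheres. Microglia, the resident macrophages of the brain, were dissociated with GentleMACS, sorted by flow cytometry and loaded uncultured for droplet-based libraries, 1 per region: the medial and the lateral corpus callosum. Both libraries were handled in this way, so the part of handling in the levels below cannot be told apart and was not tested. The sources used here do not give the Cx3cr1 allele, the number of mice behind each library or the sort gate. With 1 library per region there was no replicate, so no test was made and every interval below covers counting error only.

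As background, microglia and other macrophages that meet microbial products, dying cells or cytokines activate NF-kB and the AP-1 factors, which drive chemokine and cytokine genes within hours. NF-kB also drives its own inhibitors, such as Nfkbia and Tnfaip3, and survival genes of the Bcl2 family, so these targets tend to be seen together. Microglia in demyelinated white matter also take up myelin debris, a state known for Spp1, Gpnmb, Apoe and lysosomal genes.

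The gate ranked a continuous measure. The lowest medial member had 0.898% of its UMIs in the 5 genes and the next cell below it 0.891%. In the lateral library the corresponding values were 0.620% and 0.618%. The highest members reached 5.69% and 5.15%, while no lower-ranked cell exceeded 0.202% in the medial or 0.135% in the lateral library. The limits of the libraries differed, and 304 of the ranked medial cells, 15.8%, reached the lateral limit. Of the dropped immediate early cells, 74 of 213 medial and 112 of 230 lateral cells also lay at or above the member limit of their library.

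**Figure D1:**
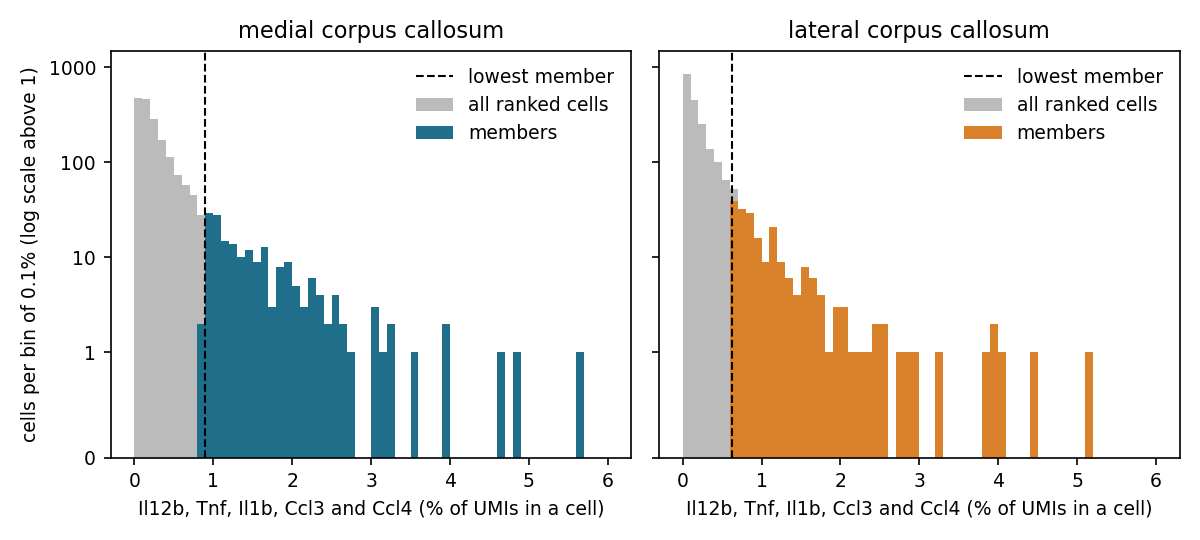
Number of cells (y axis, log scale above 1) by the percentage of a cell's UMIs in Il12b, Tnf, Il1b, Ccl3 and Ccl4 (x axis), for all ranked cells (grey) and members (coloured), with the lowest member as a dashed line. No gap separates members from the other cells, and the limit lies at 0.898% (medial) and 0.620% (lateral).

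Among the 5 genes, Ccl4 and Ccl3 made up most of the signal. Ccl4 held 56.4% of the medial members' gate UMIs and 55.1% of the lateral members', and Ccl3 held 28.5% and 25.8%. Ccl4 was the gene with most gate UMIs in 169 of 191 medial and 164 of 207 lateral members, and Il1b was so in 4 and 21. Levels are given as CPM, that is UMIs of a gene per 1000000 UMIs summed over the cells of a group. Ccl4 stood at 8764 CPM in medial members (95% Poisson interval 8637 to 8892) against 366 in the medial lower-ranked cells, and at 6283 (6175 to 6392) against 185 in the lateral library. Ccl3 stood at 4425 and 2939 CPM in medial and lateral members, against 262 and 170 in the lower-ranked cells. Il1b stood at 1431 and 1550 CPM against 347 and 238, and Tnf at 736 and 515 CPM against 70.4 and 40.3. Tnf was higher in the dropped immediate early cells than in members, at 966 and 816 CPM. Ccl4 (4062 and 3343), Ccl3 (2373 and 1659) and Il1b (1236 and 1210) were lower there than in members. Free RNA, read from barcodes with at most 100 UMIs, held Ccl4 at 2563 and 1830 CPM and Ccl3 at 1405 and 1008. It held Il1b at 1113 and 981 CPM and Tnf at 317 and 203. All of these lay below members and above the lower-ranked cells. Ccl3 (chr11:83647844-83649355) and Ccl4 (chr11:83662584-83664683) are neighbours on mouse chromosome 11 in GENCODE vM21.

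Il12b was carried by few members, so the cells are better named by Ccl3 and Ccl4 than by Il12b. An Il12b UMI was found in 23 of 191 medial (12.04%) and 25 of 207 lateral members (12.08%). In the lower-ranked cells it was found in 27 of 959 cells (2.82%) and 17 of 1039 (1.64%), at similar median depth (10372 UMIs in medial members and 10417 in the medial lower-ranked cells; 9646 and 9261 in the lateral library). Where present in members, Il12b was often abundant: 12 medial and 8 lateral members held at least 10 Il12b UMIs, with up to 60 and 32 in 1 cell. No lower-ranked cell of either library held more than 7. Il12b was 1 of the genes that chose the cells, and no lower-ranked cell exceeded 0.202% or 0.135% for the 5 genes. The contrast between the groups in Il12b thus follows in part from the choice of cells and is given as a description only. In medial members 5 cells supplied 57.7% of the 355 Il12b UMIs, and in lateral members 5 cells supplied 54.3% of 230. Free RNA, read from barcodes with at most 100 UMIs, held Il12b at 22.8 and 14.6 CPM, above the 3.98 and 2.82 CPM of the lower-ranked cells and below the 171 and 112 CPM of the members.

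The members had the profile of microglia. The 10 microglial markers (P2ry12, Tmem119, Cx3cr1, Csf1r and others) summed to 115 and 112 UMIs per 10000 in medial and lateral members, against 99.4 and 110 in the lower-ranked cells. The lists for 16 other cell types each stayed at or below 1.27 UMIs per 10000 in members and lower-ranked cells. Mast cell markers were at 0 in members, and 9 of 11 neutrophil markers were at 0 in medial and 8 of 11 in lateral members. The 8 dendritic cell markers summed to 0.162 and 0.0935 UMIs per 10000 in members against 0.0270 and 0.0222 in the lower-ranked cells; most of this was Ccr7, with 20 UMIs in medial and 13 in lateral members. Zbtb46, a factor of conventional dendritic cells, had 8 and 5 UMIs in members (3.93 and 2.46 CPM against 0.499 and 1.31), while Flt3, Xcr1 and Cd209a were at 0. Border macrophage markers were lower in members, at 0.389 and 0.251 against 0.666 and 0.479. No barcode was shared between the members of both libraries, and 7 were shared among all 4439 cells.

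The members also kept more immediate early transcripts than the lower-ranked cells, despite the drop of the highest cells. In the median member the 8 genes took 0.383% (medial) and 0.296% (lateral) of UMIs, against 0.156% and 0.148% in the lower-ranked cells. The share of ribosomal protein UMIs was lower in members, with medians of 14.1% and 13.1% against 16.0% and 14.8%, and the mitochondrial share was similar (2.22% and 2.76% against 2.25% and 2.48%). The part of these shares in the differences below was not tested, but a comparison with lower-ranked cells matched on the immediate early share is given with the counts.

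Sequence from upstream of the genes that chose the cells is shown, together with that of Cxcl2, which had the largest ratio, judged by the end of its interval nearest to 1, among genes called higher with an entry in the RefSeq promoter table. Each run gives the 250 bases before the start site, 5′ to 3′ on the gene's strand, in build GRCm38.p6 from RefSeq. Capitals mark matches to any of 5 letter patterns searched on both strands: the NF-kB (kappaB) consensus, the AP-1 pattern TGANTCA, the CRE pattern TGACGTCA, the C/EBP pattern TTGCNNAA and the interferon-stimulated response element core. Ccl4 had no entry.

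Il12b (chr11:44399813-44400062, plus strand): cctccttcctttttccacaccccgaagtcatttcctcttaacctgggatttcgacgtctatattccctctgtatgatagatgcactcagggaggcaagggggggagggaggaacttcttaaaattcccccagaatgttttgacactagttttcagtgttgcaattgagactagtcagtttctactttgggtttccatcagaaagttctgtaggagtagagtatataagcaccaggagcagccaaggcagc
Tnf (chr17:35202008-35202257, minus strand): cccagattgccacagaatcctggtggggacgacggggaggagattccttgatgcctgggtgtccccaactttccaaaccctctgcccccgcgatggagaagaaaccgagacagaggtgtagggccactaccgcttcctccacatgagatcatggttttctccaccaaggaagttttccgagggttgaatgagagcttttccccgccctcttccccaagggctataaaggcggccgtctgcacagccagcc
Il1b (chr2:129371140-129371389, minus strand): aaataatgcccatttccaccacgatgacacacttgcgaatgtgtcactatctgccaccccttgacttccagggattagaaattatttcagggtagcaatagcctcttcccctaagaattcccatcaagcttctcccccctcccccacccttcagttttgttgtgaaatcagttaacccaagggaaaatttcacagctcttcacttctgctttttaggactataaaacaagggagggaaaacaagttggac
Ccl3 (chr11:83649379-83649628, minus strand): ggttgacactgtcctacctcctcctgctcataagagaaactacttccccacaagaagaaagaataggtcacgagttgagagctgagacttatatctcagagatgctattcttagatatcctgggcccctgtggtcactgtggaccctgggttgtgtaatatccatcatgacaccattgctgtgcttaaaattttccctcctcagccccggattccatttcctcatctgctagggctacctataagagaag
Cxcl2 (chr5:90903649-90903898, plus strand): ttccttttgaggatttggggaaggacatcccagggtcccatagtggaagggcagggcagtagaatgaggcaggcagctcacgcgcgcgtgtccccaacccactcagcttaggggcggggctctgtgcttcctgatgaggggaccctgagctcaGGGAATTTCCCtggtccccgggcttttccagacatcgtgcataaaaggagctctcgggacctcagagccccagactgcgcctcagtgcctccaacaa

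The windows of Il12b, Tnf, Il1b and Ccl3 held none of the 5 patterns, which says only that these letters are absent from these 250 bases. The Cxcl2 window held 2 overlapping matches to the kappaB consensus, 1 per strand, which together span 97 to 87 bases before the start. Of the genes tested below, 6778 of 8737 matched the RefSeq table by symbol. A kappaB match lay in 38 of 198 matched promoters of genes called higher in members (19.2%), in 12 of 117 of genes called lower (10.3%) and in 712 of all 6778 (10.5%). An AP-1 match lay in 24 of 198 (12.1%), 7 of 117 (5.98%) and 346 of 6778 (5.10%), and a CRE match in 13 (6.57%), 1 (0.855%) and 228 (3.36%). The C/EBP pattern was in 13 of 198 (6.57%), 13 of 117 (11.1%) and 594 of 6778 (8.76%), and the interferon element core in 14 (7.07%), 4 (3.42%) and 226 (3.33%). These are letter matches, counted without a test.

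Across 8737 genes with at least 100 UMIs over members and lower-ranked cells, a gene was called when its CPM in members was at least 1.5 times that of the lower-ranked cells, or the reverse, in both libraries. By this rule 260 genes (2.98%) were called higher in members and 148 (1.69%) lower. The median log2 ratio over all genes tested was -0.03 in either library. Among the gene lists, the share called higher was largest for chemokines (9 of 11), cytokines and growth factors (10 of 17), signal feedback genes (10 of 17) and survival genes (8 of 15). No gene was called in the lists of glycolysis, oxidative phosphorylation or proliferation. Chemokines summed to 49.9 and 42.1 UMIs per 10000 in the medial and lateral dropped immediate early cells, against 47.4 and 41.0 in members. The NF-kB list took 72.7 and 62.5 against 49.6 and 45.3, and signal feedback genes 60.8 and 52.6 against 43.6 and 34.1. Survival genes took 42.8 and 38.4 against 44.6 and 38.0, and cytokines and growth factors 29.7 and 30.6 against 33.0 and 29.8. High levels of these lists were thus not particular to members. Against lower-ranked cells matched on the immediate early share, 246 genes were called higher, 176 of them among the 260, and 188 lower. The match was partial: the mean share stayed higher in members (0.449% against 0.328% medial, 0.346% against 0.299% lateral), and the medians were 0.383% against 0.295% and 0.296% in either lateral group. Of the genes named below as called, Otud1, Tnfaip2, Tnfaip3, Tlr2, Cd83, Klf6, Nr4a1, Dnajb1, Usp18 and Gas6 missed the limit in at least 1 library in that comparison.

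**Figure D2:**
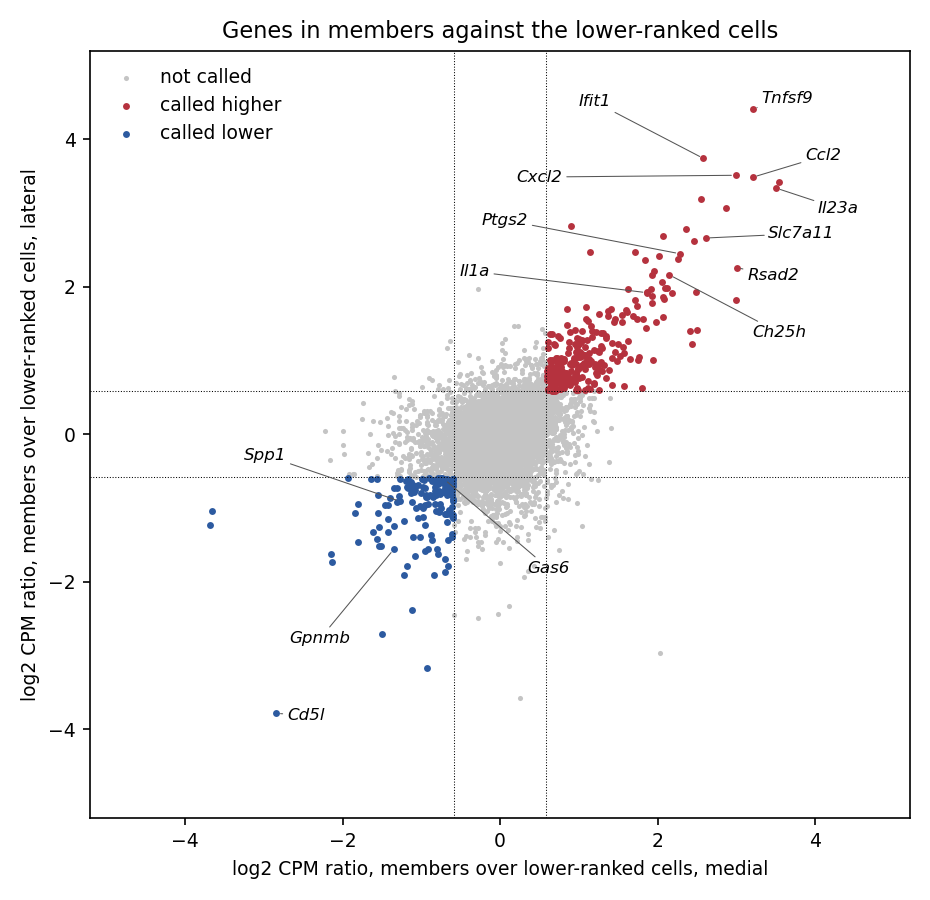
log2 ratio of CPM in members over the lower-ranked cells in the medial library (x axis) against that in the lateral library (y axis), 1 point per gene, with dotted lines at a ratio of 1.5. The 260 genes called higher (red) include Tnfsf9, Ccl2 and Cxcl2, and the 148 called lower (blue) include Cd5l, Gpnmb and Spp1.

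Chemokines other than Ccl3 and Ccl4 were higher as a group in members than in the lower-ranked cells. Of 11 measured, 9 were called higher and none lower, with a median log2 ratio of 1.61 (medial) and 1.66 (lateral), against -0.03 for all genes in either library. Cxcl2, which recruits neutrophils through Cxcr2, stood at 1659 CPM in medial and 1078 in lateral members against 209 and 94.6 in the lower-ranked cells. Its log2 ratios were 2.99 (95% interval 2.91 to 3.07) and 3.51 (3.40 to 3.62). A Cxcl2 UMI was seen at 2400 UMIs per cell in 71.7% of medial and 47.3% of lateral members, against 29.0% and 15.9% of lower-ranked cells, so the groups overlapped. Free RNA held Cxcl2 at 1119 and 707 CPM, above the lower-ranked cells.

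The monocyte attractants Ccl2 and Ccl12, both ligands of Ccr2, followed. Ccl2 was 191 and 137 CPM in members against 20.7 and 12.2, with log2 ratios of 3.21 (2.96 to 3.46) and 3.49 (3.17 to 3.81). Ccl12 was 548 and 503 CPM against 132 and 121, 4.14 and 4.17 times higher. Cxcl10, an interferon-inducible attractant of T cells, was 353 and 238 CPM against 82.5 and 60.0. Ratios were smaller for Ccl6, a monocyte and macrophage chemokine (1033 and 1236 CPM against 473 and 607), and for Cxcl16, a membrane-bound ligand of Cxcr6 (308 and 318 against 203 and 171). Ccl5 was called higher, but 5 cells held 58.8% of its medial and 51.1% of its lateral member UMIs. Without the 2.5% of cells with most Ccl5 UMIs in members and lower-ranked cells alike, its log2 ratios were 1.51 and 1.53.

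Of 17 measured cytokines and growth factors, 10 were called higher and 1 lower, with median log2 ratios of 0.90 and 0.99. Tnfsf9, the ligand of the costimulatory receptor 4-1BB, was 184 and 277 CPM in members against 19.9 and 13.02, 9.26 and 21.3 times higher, with log2 intervals of 2.96 to 3.47 and 4.13 to 4.70. Il1a, the interleukin 1 form released by damaged cells, was more abundant and widespread, at 1504 and 1008 CPM against 413 and 266. A UMI of it was seen in 96.3% of medial and 94.7% of lateral members at full depth. Il1rn, the receptor antagonist of both interleukin 1 forms, was 3.76 and 3.91 times higher, at 136 and 105 CPM. Agonist and antagonist were thus both higher in members.

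Il23a, which pairs with the Il12b product to form IL-23, was 29.5 and 14.3 CPM in members against 2.60 and 1.41, with wide log2 intervals (2.82 to 4.23 and 2.37 to 4.37). Il12a, which pairs with it to form IL-12, had no UMI in members or lower-ranked cells. Il23a was found in 23 medial and 14 lateral members, and 5 cells held 66.7% and 69.0% of its UMIs. Osm, an IL-6 family cytokine, was 189 and 168 CPM against 45.1 and 46.2. Il6 itself was under the minimum of 100 UMIs, with 40 UMIs in medial and 31 in lateral members against 6 and 9 in the 5 times as many lower-ranked cells. Csf1, the growth factor of microglia themselves, was 191 and 148 CPM against 68.3 and 74.5. The gene called lower was Il16, a ligand of CD4, at 17.2 and 20.2 CPM against 27.9 and 33.3. Neither Nos2, the inducible nitric oxide synthase, nor the myeloid growth factor Csf2 had a UMI in members.

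Among genes of the NF-kB system, 6 of the 8 called were IkB family genes or deubiquitinases, but the calls of both deubiquitinases were lost when the immediate early share was matched. Of 22 measured genes of the list 8 were called higher and none lower (median log2 ratios 0.60 and 0.49). The 8 were the subunit Rel, the IkB family genes Nfkbia, Nfkbib, Nfkbid and Nfkbiz, the deubiquitinases Tnfaip3 and Otud1, and Tnfaip2. Nfkbia, which holds NF-kB in the cytoplasm, was 1668 and 1756 CPM against 847 and 771, log2 0.98 (0.92 to 1.04) and 1.19 (1.13 to 1.25). Tnfaip3, which ends signalling from Tnf and Toll-like receptors, was 265 and 207 CPM against 86.0 and 86.6. Against lower-ranked cells matched on the immediate early share 6 genes of the list were called, 5 of the 8 and Relb; the log2 ratios there were 0.97 and 0.58 for Tnfaip3, 2.03 and 0.28 for Otud1 and 0.70 and 0.41 for Tnfaip2. The subunit genes Nfkb1 (log2 0.37 and 0.74) and Relb (0.74 and 0.52) did not reach the limit in both libraries. Among 25 sensors and adaptors only Tlr2 and Ticam1 were called, both higher; Tlr2 was 733 and 595 CPM against 404 and 369 (log2 0.72 and 0.54 against the matched cells). Tlr4 was 5.41 and 9.35 CPM against 6.89 and 8.68.

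**Figure D3:**
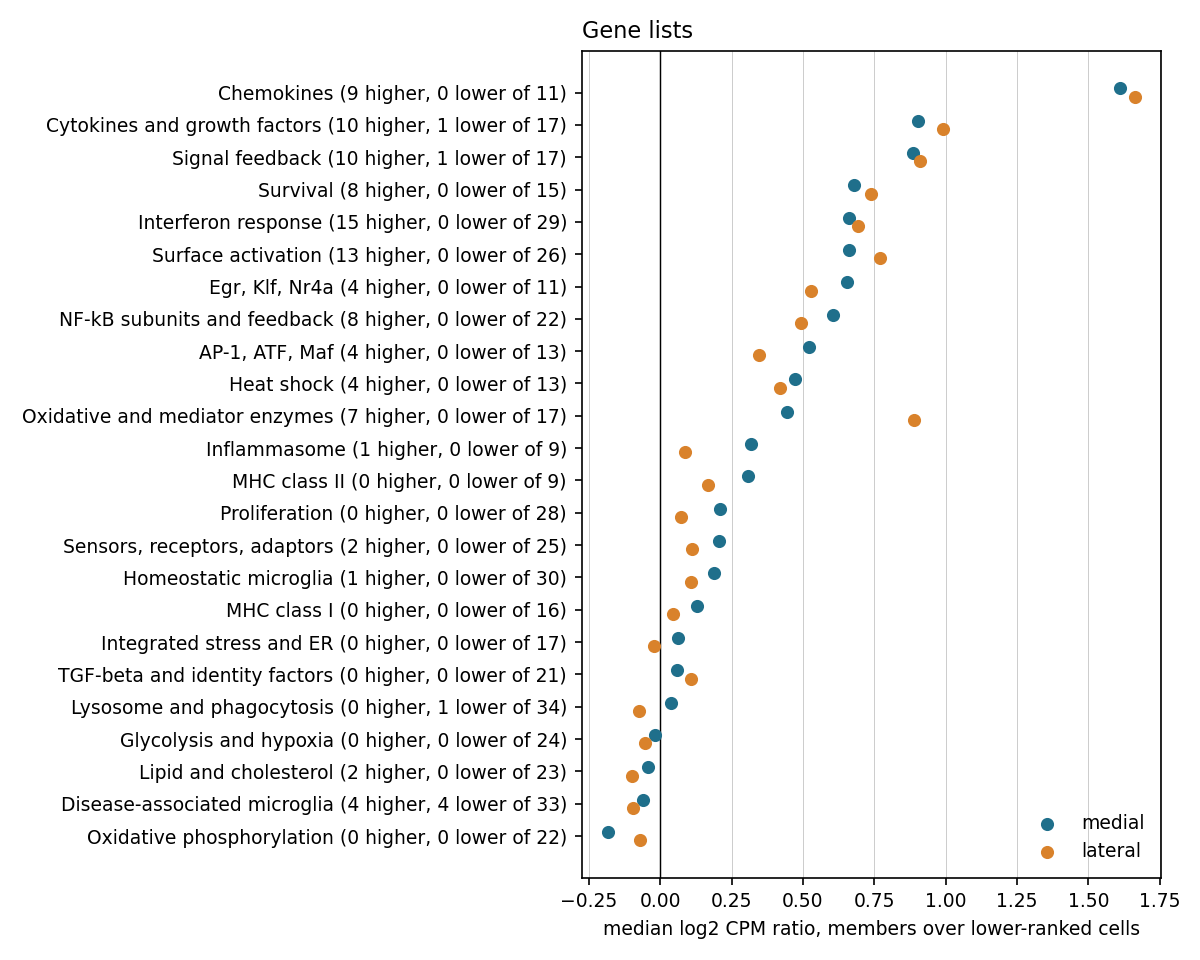
Median log2 ratio of CPM in members over the lower-ranked cells for each gene list, in the medial (blue) and lateral (orange) library, with the number of genes called higher and lower of those measured. Chemokines had the highest medians (1.61 and 1.66), and MHC class I, lysosomal and metabolic lists lay near 0.

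Activation genes of the cell surface were called higher in 13 of 26 cases and lower in none (median log2 0.66 and 0.77). Cd83, a marker of activated antigen-presenting cells, was 2760 and 2685 CPM against 1755 and 1580 (log2 0.42 and 0.61 against cells matched on the immediate early share). A Cd83 UMI was seen in 99.3% of medial and 98.7% of lateral lower-ranked cells and in 100% of members, so nearly all cells of both groups held it. Icam1, the adhesion ligand of leukocyte integrins, was 704 and 410 CPM against 255 and 190. Gpr84, a receptor of medium-chain fatty acids, was 2.05 and 2.64 times higher, and Ptgs2, the inducible cyclooxygenase of prostaglandin synthesis, 4.86 and 5.46 times, at 71.3 and 78.8 CPM. The costimulatory ligand Cd80 was low in both groups (8.85 and 8.86 CPM against 5.19 and 5.15), and its log2 intervals included 0 in both libraries. Vcam1 was called higher on few UMIs, and its lateral log2 interval of -0.10 to 1.24 included 0.

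Survival genes were called higher in 8 of 15 cases (median log2 0.68 and 0.74). Bcl2a1b, an antiapoptotic Bcl2 relative, was 1570 and 1440 CPM against 952 and 841. Bcl2a1a and Bcl2a1d were also called higher, but the Bcl2a1 copies are nearly identical, so how their reads were divided is uncertain. Pim1, a survival kinase, was 555 and 426 CPM against 274 and 196. Pmaip1, a proapoptotic relative, was higher too, at 131 and 99.9 CPM against 51.7 and 40.4.

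Feedback genes of other signalling routes were called higher in 10 of 17 cases, and 1, Rgs2, was lower. Dusp1, a phosphatase that ends MAP kinase signals, was 491 and 282 CPM against 129 and 81.7, and Socs3, an inhibitor of cytokine receptors, 563 and 444 against 204 and 151. Rgs2, a brake on G protein signalling, was 72.3 and 56.6 CPM against 132 and 146. Of 13 further AP-1, ATF and Maf genes 4 were called higher. Atf3, a stress-induced repressor of cytokine genes, was 596 and 455 CPM against 246 and 175, and Maff 216 and 153 against 56.8 and 41.8. Of 11 Egr, Klf and Nr4a genes 4 were called higher, namely Egr2, Nr4a1, Klf6 and Myc. Heat shock genes were called higher in 4 of 13 cases (Hspa1a, Dnajb1, Dnajb4 and Hspb1), with Hspa1a, a chaperone with a near-identical copy, at 15.2 and 10.8 CPM against 3.99 and 2.42. Without the 2.5% of cells with most UMIs of each gene, Egr2, Hspa1a, Hspb1 and the cytokine gene Il23a had no lateral ratio. They were therefore not called there, with medial log2 ratios of 2.49, 2.52, 3.32 and 6.64. The share of the 8 immediate early genes of the drop was also higher in members, and its part in these lists was not tested.

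In cells thinned to 2400 UMIs, the lists separated members and lower-ranked cells only in part. Medial members held a median of 9 chemokine UMIs and lateral members 8, against 3 and 2 in the lower-ranked cells, and 7.09% and 9.62% of lower-ranked cells reached the median of members. For the NF-kB list the medians were 11 and 11 against 6 and 5. From the 10th to the 90th percentile, cells held 3 to 23 and 3 to 19 chemokine UMIs in medial and lateral members and 0 to 7 in the lower-ranked cells of either library, so the ranges overlapped. Of members, 58.1% and 51.2% lay above the 90th percentile of the lower-ranked cells for chemokines, and 46.6% and 53.6% did so for the NF-kB list.

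**Figure D4:**
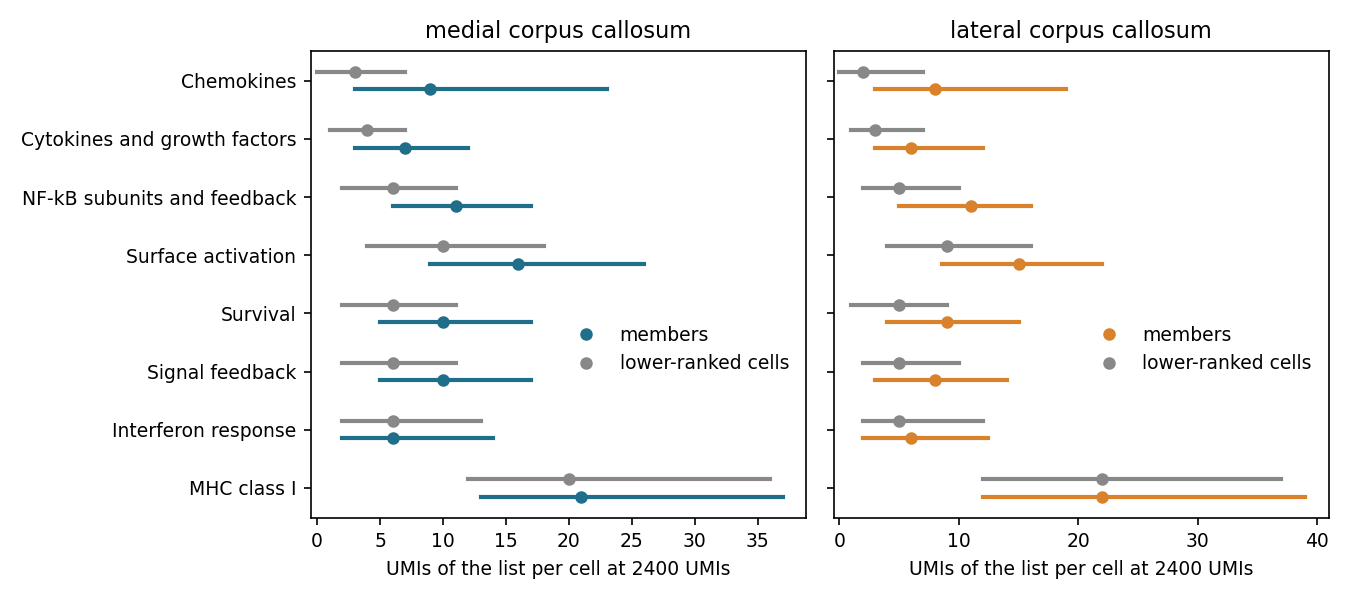
UMIs of each gene list per cell after thinning to 2400 UMIs (x axis), with the median (point) and the 10th to 90th percentile of cells (line) for members (coloured) and the lower-ranked cells (grey). Chemokine medians were 9 and 8 in members against 3 and 2, while interferon and MHC class I medians differed by at most 1 UMI.

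Interferon response genes were called higher in 15 of 29 cases, and for those with the largest ratios most UMIs were held by few members. Ifit1, an antiviral RNA-binding protein, was 33.4 and 36.4 CPM in members against 5.59 and 2.72, and Rsad2, the antiviral enzyme viperin, 75.2 and 27.1 against 9.39 and 5.65. In medial members 5 cells held 92.7% of Ifit1 UMIs, and in lateral members 95.9%. For Rsad2 5 cells held 90.8% and 80.0%. Members with at least 10 UMIs over 8 genes (Ifit1, Ifit2, Ifit3, Ifit3b, Rsad2, Isg15, Cmpk2 and Usp18) numbered 11 of 191 (5.76%, exact 95% interval 2.91 to 10.1) and 8 of 207 (3.86%, 1.68 to 7.47). In the lower-ranked cells they numbered 14 of 959 (1.46%, 0.80 to 2.44) and 8 of 1039 (0.770%, 0.333 to 1.51). The median cell held 6 UMIs of the whole list in both groups of the medial library and 6 against 5 in the lateral one. Irf7 (60.0 and 46.3 CPM against 60.0 and 47.6), the regulator of type I interferon genes, was not called. Ifit3 and Ifit3b are nearly identical, and their split is uncertain. When each gene was computed without the 2.5% of cells with most of its UMIs, in members and lower-ranked cells alike, 10 of the 15 interferon genes were still called, together with Irf1, and all 9 chemokines and all 8 NF-kB genes were. In that comparison Ifit1 had a medial log2 ratio of 0.03, and with no UMI of it left in the lateral lower-ranked cells it had no lateral one. Rsad2 stood at 0.41 and 1.74.

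Enzymes of oxidative defence and lipid mediators were called higher in 7 of 17 cases. Slc7a11, the cystine importer that feeds glutathione synthesis, was 202 and 116 CPM against 33.1 and 18.4, log2 2.61 (2.40 to 2.83) and 2.66 (2.38 to 2.95). It was found in 60.7% and 44.4% of members and in 18.7% and 12.03% of lower-ranked cells. Ch25h, which makes 25-hydroxycholesterol, was 179 and 119 CPM against 40.3 and 26.6, and Irg1, which makes itaconate, 56.6 and 49.2 against 17.3 and 8.88. Other genes among the 20 with the largest ratios were F3, the tissue factor that starts coagulation (24.1 and 17.7 CPM against 3.30 and 2.12), Adamts1, a secreted metalloprotease (96.9 and 83.7 against 17.6 and 13.6), Gem, a small GTPase (317 and 206 against 73.2 and 52.2), and Mir155hg, the host transcript of the inflammatory microRNA miR-155 (51.1 and 35.9 against 12.2 and 5.55). Without the 2.5% of cells with most F3 UMIs, F3 had a medial log2 ratio of 4.80 and no lateral one. Nlrp3, the inflammasome sensor, was the only gene called of 9 in its list, at 406 and 308 CPM against 182 and 111, while Casp1 was 46.2 and 35.9 against 35.1 and 37.5.

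Genes lower in members included some of the debris-clearing state. Of 33 disease-associated microglia genes 4 were called lower, namely Spp1, Gpnmb, Mamdc2 and Gpx3, and 4 higher, namely Itgax, Csf1, Ccl6 and Ch25h. Spp1, which encodes osteopontin, was 2307 and 3093 CPM in members against 5564 and 5807, log2 -1.27 (-1.31 to -1.23) and -0.91 (-0.95 to -0.87). Gpnmb, a membrane glycoprotein of lysosome-rich macrophages, was 282 and 190 CPM against 718 and 560.4, log2 -1.35 (-1.48 to -1.23) and -1.56 (-1.71 to -1.41). Others of the list did not differ by the limit: Apoe was 48624 and 38976 CPM against 45063 and 40601, Cst7 1068 and 1298 against 1074 and 1293, and Lpl 814 and 1020 against 654 and 796. The list medians of -0.06 and -0.09 were close to the -0.03 of all genes.

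Cd5l, a secreted scavenger-family protein, had the lowest ratios of the genes named here, at 1.97 and 2.46 CPM in members against 14.1 and 33.9. It was found in 3 medial and 5 lateral members, and in 82 and 106 lower-ranked cells. Gas6, the ligand of the phagocytic receptors Axl and Mertk, was the only 1 of 34 lysosomal and phagocytosis genes called, at 474 and 554 CPM against 774 and 845. Fabp5, a fatty acid carrier, was 322 and 423 CPM against 591 and 631, and Lgals1, a galectin, 208 and 250 against 385 and 374; both missed the limit in the lateral library. Wfdc17, a small secreted protein, was 124 and 207 CPM against 279 and 342.

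Homeostatic genes differed little, with median log2 ratios of 0.19 and 0.11. Of 30 only Rhob, a small GTPase that is also growth-factor induced, was called, at 518 and 349 CPM against 183 and 149. P2ry12, the ADP receptor of resting microglia, was 490 and 524 CPM against 380 and 442, and Tmem119 465 and 469 against 530 and 536. Their summed level was 303 and 290 UMIs per 10000 in members against 246 and 260. No gene was called in the lists for MHC class I (16 genes), MHC class II (9), glycolysis (24), oxidative phosphorylation (22), the integrated stress response (17), proliferation (28) or microglial identity factors (21). Without the 2.5% of cells with most UMIs of each gene, Cd74 of MHC class II was called higher (log2 1.16 and 1.11). H2-Q4, H2-Q6 and Tap2 of MHC class I and Mcm5 and Rrm2 of proliferation were also called higher there. The integrated stress list had 1 gene called lower there. Against cells matched on the immediate early share, H2-Q6, H2-Q7 and Tyms were called higher. Mki67, a marker of cycling cells, was 24.6 and 26.6 CPM against 26.7 and 28.2.

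Along the whole ranking, the NF-kB list increased decile by decile, whereas chemokines increased most into the top decile. From the lowest decile to the ninth decile of medial cells, the NF-kB list went from 19.6 to 44.3 UMIs per 10000, and members held 49.6. In the lateral library it went from 18.6 to 39.7, with 45.3 in members. The chemokine list went from 11.6 to 30.4 and then to 47.4 in medial members, and from 11.98 to 23.5 and then to 41.0 in lateral members. Cxcl2 alone went from 9.36 in the ninth decile to 16.6 in medial members and from 3.88 to 10.8 in lateral members. Gpnmb went from 9.22 in the lowest decile to 2.82 in medial members and from 5.94 to 1.90 in lateral members. MHC class I stayed between 89.8 and 101 in the medial and between 100.1 and 105 in the lateral library. The immediate early genes went from 14.2 to 45.9 and from 14.8 to 34.9 over the same deciles, and their part in the other slopes was not tested. Cxcl2 and Gpnmb were chosen for this view after their values were seen.

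**Figure D5:**
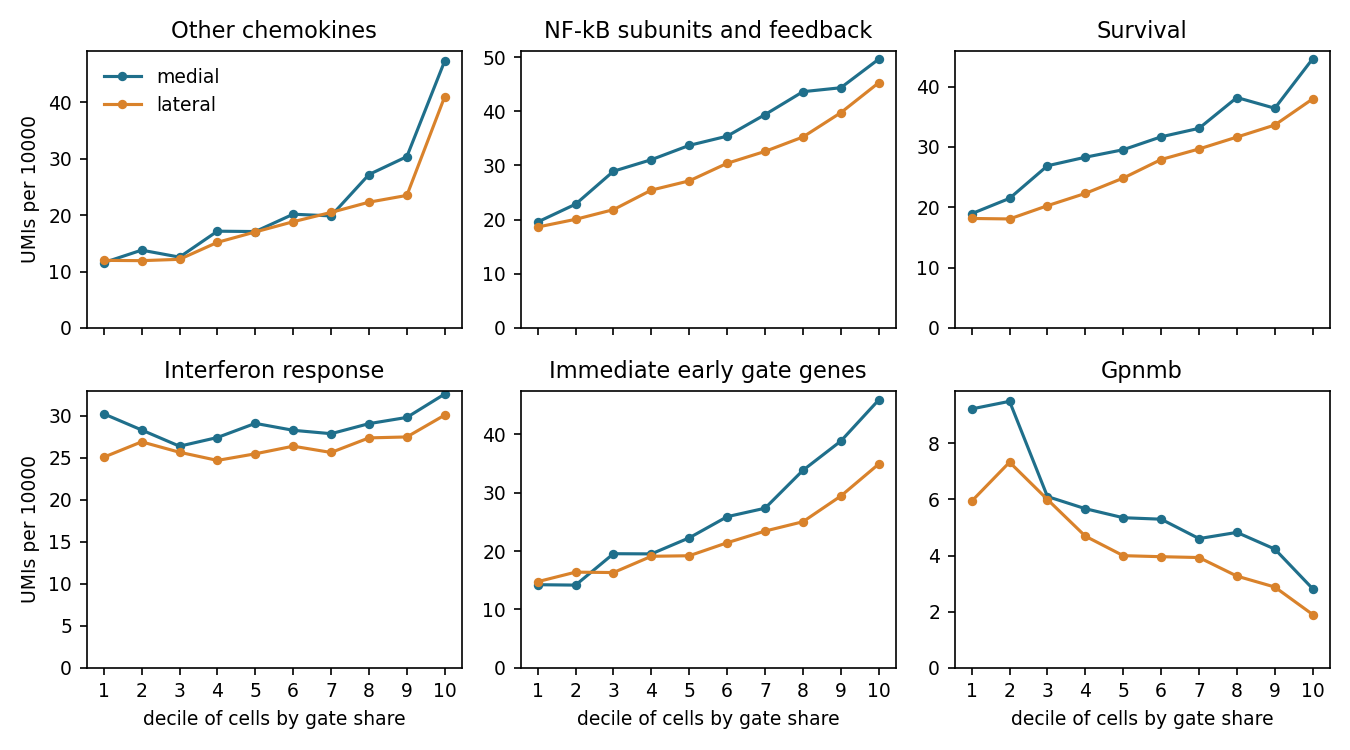
UMIs per 10000 (y axis) of 5 gene lists and of Gpnmb by decile of ranked cells (x axis, 10 being members) in the medial (blue) and lateral (orange) library. NF-kB and survival lists increase along the ranking, chemokines increase most in decile 10, from 30.4 to 47.4 in the medial library, and the interferon list is nearly flat.

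Members of the medial and lateral library were then compared, within the limit of 1 library each, so that region and library cannot be told apart. The 2 member groups were also cut at unlike limits, 0.898% (medial) and 0.620% (lateral) for the share of the 5 genes. The drop for the immediate early share began at 1.10% (medial) and 0.708% (lateral), and members kept median early shares of 0.383% and 0.296%. The part of these unlike limits in the differences of single genes below was not tested. Of 4281 genes with at least 100 UMIs in members, 106 (2.48%) were at least 1.5 times higher in medial members and 73 (1.71%) in lateral members. Of 10 chemokines, Cxcl2 was called higher in medial (1659 against 1078 CPM) and Cxcl1, another Cxcr2 ligand, in lateral members (64.5 against 39.3). For Cxcl2 the log2 difference was 0.62 (0.54 to 0.70) in members and larger in the lower-ranked cells (1.15, 1.03 to 1.26), and the free RNA also held more of it in the medial library (1119 against 707 CPM). For Cxcl1 it was -0.71 (-1.13 to -0.30) in members and of the opposite sign in the lower-ranked cells (0.62, 0.27 to 0.97). Igf1, an insulin-like growth factor that acts on oligodendrocyte lineage cells, was 279 CPM in medial and 517 in lateral members, log2 -0.89 (-1.04 to -0.74), against a difference of -0.18 (-0.23 to -0.12) between the lower-ranked cells. Tnfsf9 was 184 in medial and 277 in lateral members, log2 -0.59 (-0.78 to -0.40), and in the lower-ranked cells the order was the opposite (0.61, 0.28 to 0.94). Dusp1, at 491 and 282 CPM, and Icam1, at 704 and 410, were higher in medial members, and in the lower-ranked cells the same direction was seen (0.66 and 0.43 on the log2 scale). Rsad2 had the largest medial excess by its interval (log2 1.47, 1.02 to 1.95), and 5 cells held 90.8% of its medial UMIs. Of 7 MHC class II genes, 4 (Cd74, H2-Aa, H2-Eb1 and H2-Oa) were called higher in medial members. Cd74, the invariant chain, was 1032 and 566 CPM, but 5 cells held 52.2% and 40.6% of its UMIs. Fau, a fusion of a ubiquitin-like and a ribosomal protein, was 115 CPM in medial and 59.6 in lateral members, and it was also higher in the medial lower-ranked cells (log2 0.70). It has related copies in the genome, so its values are uncertain.

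The members that carried Il12b were compared with the members that did not, a split chosen after the values were seen. In 33 of 4281 genes (0.771%) the level was at least 1.5 times higher in the 23 medial and 25 lateral members with an Il12b UMI, and in 82 (1.92%) it was lower. Their median depth was greater (13100 against 10208 UMIs in medial and 11178 against 9332 in lateral members), and the part of depth in these differences was not tested. Of 7 MHC class II genes 4 (Cd74, H2-Aa, H2-Ab1 and H2-Eb1) were called higher. Cd74 was 1576 and 868 CPM in Il12b-bearing members against 946 and 516, log2 0.74 (0.58 to 0.89) and 0.75 (0.54 to 0.96), and H2-Ab1 368 and 302 against 217 and 147. These UMIs sat in few cells: 3 of the 23 medial cells held 78.9% of their Cd74 UMIs and 3 of the 25 lateral cells 87.6%, and the median cell with Il12b held 3 and 1 Cd74 UMIs against 2 and 1 without. The intervals, which cover counting error only, do not include this spread between cells. Tnfsf9 was 365 and 389 CPM against 155 and 259, with 52.9% and 55.4% of its UMIs in 3 of the Il12b-bearing cells. Klf2, a factor of quiescence, was lower, at 25.02 and 31.3 CPM against 113 and 94.6, on 7 and 9 UMIs. Leaving out all members with an Il12b UMI kept 240 of the 260 genes called higher among 276 called. Only 23 of 191 medial and 25 of 207 lateral members were left out, so most cells were the same and a large overlap was built in.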

How the data were processed

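Single-cell libraries of sorted microglia from the medial and the lateral corpus callosum, 1 each, were analysed. Per the submitters' processing notes the authors used Cell Ranger 2.0.1 and STAR with build mm10, and they deposited unfiltered UMI counts for 27998 genes and 737280 barcodes per library. The sources used here do not give the annotation version. The deposited counts summed to 28660496 medial and 27955414 lateral UMIs. The 56 symbols with several gene IDs were summed.

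Barcodes were filtered and ranked as described with the results. The cells and gene lists were chosen with earlier results of these data known. UMIs were summed per group and library. Counts per 1000000 UMIs (CPM) left the 13 genes that chose the cells out of the total, and genes with at least 100 UMIs over both groups and libraries were compared. The CPM of the 13 genes themselves, also in the free RNA, used the total of all UMIs. Ratios carry exact conditional binomial 95% intervals, levels exact Poisson and shares exact Clopper-Pearson intervals, all for counting error only. Per-cell sums of the gene lists used cells thinned to 2400 UMIs with a fixed seed, as did detection where 2400 UMIs per cell is named. All other counts and shares of cells with a UMI used full depth. So did UMIs of single genes per cell and the count of cells with at least 10 UMIs over 8 interferon genes. Scrublet (scanpy 1.11.5, expected rate 0.05) marked 3 barcodes per library, fewer than 0.5% of the cells, so doublets were not effectively called, and none was removed. The ratio code was checked on simulated counts. Python 3.11.15, numpy 2.4.6, scipy 1.17.1, pandas 2.3.3 and matplotlib 3.10.9 were used.

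Genes named were the 20 higher and 15 lower with the largest ratio by the interval end nearest 1, the 2 highest, 2 lowest and most abundant of each list, the 10 highest and 10 lowest between regions, and others of the lists to fill in their roles. Mitochondrial, ribosomal protein, sex-linked and unnamed genes were left out of the ranking, and some genes are not reported here. Alternatives numbered 18, of which 3 were added after the data were seen: members without an Il12b UMI, lower-half cells matched on the immediate early share, and each gene without its highest 2.5% of cells.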

Additional observations from a re-analysis of the deposited data

Results flagged for a closer look

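For 8 of the genes reported here the members lay above the lower-ranked cells in one library and below it in the other, with both counting intervals excluding a ratio of 1. The difference between the libraries was not tested, since there is 1 library per region. Most of these differences were small on the log2 scale. Apoe had a medial value of 0.1097 and a lateral one of -0.05892, Ctsa stood at 0.08709 and -0.08073, and Lgmn at 0.1055 and -0.1072. Cx3cr1 stood at -0.186 and 0.1394, H2afz at -0.1062 and 0.07372, and Ube2c at 0.4023 and -0.4641. Larger differences came with few cells: Cxcl9 stood at 2.03 and -2.962 with UMIs in 3 medial and 2 lateral members, and Saa3 at -0.6751 and 1.168 with 75.0% and 84.3% of its member UMIs in 5 cells.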

How the results depend on the processing

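The gene counts were 260 higher and 148 lower. They came to 390 and 446 with cells thinned to 2400 UMIs, which leaves fewer UMIs per gene, 171 and 96 against every other ranked cell, 336 and 378 with the top 5% as members, 190 and 62 with the top 20%, and 336 and 95 with no cell dropped for its immediate early share. A gate of Il12b, Tnf and Il1b gave 146 and 180, no minimum on summed UMIs 636 and 326, a minimum of 500 UMIs 130 and 28, and a ratio of 2 99 and 26. With the gate of Il12b, Tnf and Il1b, 116 of the 260 and 38 of the 148 genes were kept. Its median log2 ratios were 0.98 and 0.97 for chemokines (7 of 11 called higher) and 0.30 and 0.29 for cytokines (6 of 17). In the NF-kB list 9 of 22 genes were called higher with it. Leaving out each gene's highest 2.5% of cells gave 373 and 236. Between regions, against 106 higher in medial and 73 in lateral members, thinning gave 362 and 452, the top 5% 222 and 245, the top 20% 67 and 14, no minimum 1297 and 1419, a minimum of 500 UMIs 28 and 3, and a ratio of 2 9 and 2. Each cell counting alike gave 136 in lateral members, dropping the top 30% by immediate early share 123 in lateral members, and dropping none 60 in medial members. Some log2 ratios changed sign. The medial MHC class II median was -0.003557 with the top 5% and -0.2009 with no drop, and lateral Ifit3 was -0.08546 with the top 30% dropped. With the gate of Il12b, Tnf and Il1b the lateral medians of the disease-associated and lysosomal lists were 0.05175 and 0.03317, the medial homeostatic median was -0.003731, medial Ifit1 was -0.04502 and medial Cd5l 0.6154, and 2 of 29 interferon genes were called higher. The cause was not tested. No paired analysis was possible because each region has 1 library.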
